A study of Mus musculus with 2 samples.

Results

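The provisional matrix and hyaluronan genes are 10 genes, taken by name from the 32285 genes of the count tables: *Fn1*, *Vcan*, *Thbs1*, *Tnc*, *Postn*, *Has1*, *Has2*, *Tnfaip6*, *Ptx3* and *Cd44*. The list was drawn up with earlier results of these data known, and all 10 had unique molecular identifiers (UMIs, 1 per captured transcript) in the kept cells of both days. They were measured by single-cell RNA sequencing of mononuclear cells from the quadriceps of WT mice, male C57BL/6J animals of 14 weeks, at 1 and 3 days after intramuscular injection of barium chloride (BaCl2), which kills myofibers. Each day had 1 library, pooled from 5 mice. Both groups were injured and shared genotype, sex and age, so the day was the stated difference between them. No other sample of the study was used. The suspensions were made by enzyme digestion, passed over a density gradient, sorted by light scatter and frozen, and they hold no myofibers. The comparison of the 2 days asks how the cells of injured muscle change between these times.

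After injury, a temporary matrix of fibronectin, fibrin, matricellular proteins and hyaluronan fills the damaged space before collagen is laid down. Hyaluronan is a sugar polymer that synthases in the cell membrane extrude, and versican, TSG-6 (encoded by *Tnfaip6*), pentraxin 3 and the receptor CD44 bind or organise it. In muscle, this matrix surrounds regenerating fibers, and fibro-adipogenic progenitors (FAPs, the resident fibroblast-like cells), macrophages and satellite cells are known to contribute to it or to respond to it.

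Promoter sequences are shown for the members whose transcripts lay almost only in fibroblast/FAP-like cells on both days, as described further on. Of the 10 members, 7 had a promoter window in the RefSeq table (build GRCm38.p6), and *Fn1*, *Thbs1* and *Has2* had none. Each window is the 250 bases before an annotated start, written 5′ to 3′ on the gene's strand. It is given for *Tnc* (chr4:64047016-64047265, minus strand, the first of 2 windows), *Postn* (chr3:54360857-54361106, plus strand, the second of 2 windows), *Has1* (chr17:17855189-17855438, minus strand) and *Ptx3* (chr3:66219637-66219886, plus strand). Capitals mark matches to the motifs searched.
Tnc: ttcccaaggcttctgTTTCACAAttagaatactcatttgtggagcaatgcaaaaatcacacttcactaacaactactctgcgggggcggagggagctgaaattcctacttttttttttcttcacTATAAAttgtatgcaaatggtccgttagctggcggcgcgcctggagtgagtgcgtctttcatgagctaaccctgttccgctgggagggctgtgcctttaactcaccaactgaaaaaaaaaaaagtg
Postn: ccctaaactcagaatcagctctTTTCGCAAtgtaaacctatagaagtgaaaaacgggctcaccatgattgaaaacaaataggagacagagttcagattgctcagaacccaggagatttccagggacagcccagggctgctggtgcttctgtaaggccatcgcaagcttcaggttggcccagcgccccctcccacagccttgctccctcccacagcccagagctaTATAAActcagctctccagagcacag
Has1: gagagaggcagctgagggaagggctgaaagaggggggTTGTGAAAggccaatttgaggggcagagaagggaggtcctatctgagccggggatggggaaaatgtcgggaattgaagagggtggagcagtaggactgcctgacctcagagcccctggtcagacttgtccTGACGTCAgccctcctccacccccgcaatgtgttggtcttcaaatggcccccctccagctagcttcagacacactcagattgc
Ptx3: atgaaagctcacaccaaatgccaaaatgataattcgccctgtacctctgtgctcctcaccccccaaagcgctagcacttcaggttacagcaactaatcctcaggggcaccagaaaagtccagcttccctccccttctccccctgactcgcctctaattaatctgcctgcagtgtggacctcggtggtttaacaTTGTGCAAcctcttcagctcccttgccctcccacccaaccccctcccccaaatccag
The motifs were searched on both strands, and no matches to different motifs overlapped in these windows. TATAAA, the core of the TATA box, stood 21 bases before the *Postn* start and 121 bases before the *Tnc* start, and 12.4% of all 32851 windows hold it. TGACGTCA, the cyclic AMP response element, stood 76 bases before the *Has1* start, and 1.55% of windows hold it. All 4 printed windows matched TTGNNNAA, the outline of a C/EBP site, as did 33.3% of all windows. None of the 4 held TGANTCA, an AP-1 site found in 6.75% of windows, or an NF-kB site, found in 0.356%. A match is a string of letters, not evidence that the factor binds there.

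The deposited counts summed to 74852240 UMIs on day 1 and 102565783 on day 3. After filtering there were 6735 cells of day 1 and 4627 of day 3, with medians of 9389 and 14548 UMIs, and no barcode was shared. The limit on mitochondrial UMIs left out 517 cells of day 1 and 2013 of day 3. The 2 libraries listed different sets of possible barcodes, which may reflect another chemistry, and this cannot be told apart from the day. All 15 clusters took a name from marker genes, which were not used for clustering, as were the members. Monocyte/macrophage-like cells were 34.5% of day 1 and 46.1% of day 3, and fibroblast/FAP-like cells were 9.55% and 17.6%. Neutrophil-like cells were 30.9% and 5.55%. The monocyte/macrophage-like cells lay in different clusters on the 2 days, led on day 1 by *Ccl24* and *Cd163* and on day 3 by *Fcrls* and *Gpnmb*, and the fibroblast/FAP-like cells were led by *Cxcl5* on day 1 and by *Sfrp2* on day 3. All 8 fibroblast/FAP markers, *Pdgfra* and the collagens among them, were raised in both fibroblast/FAP-like clusters. A level is the number of UMIs of a gene in a group of cells per 1000000 UMIs of all genes in that group (CPM), and parentheses hold 95% confidence intervals (CI). These intervals reflect counting error alone, since the mice of a day were pooled into 1 library, and no test or p-value is given. Because CPM is a share of the RNA of a group, a lower level per cell and more RNA of other genes cannot be told apart.

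The transcripts of the 10 members came from different cells, and for some members the source changed between the days. On day 1, the monocyte/macrophage-like and the *Ly6c2*+ monocyte-like cells together held 86.4% of the UMIs of *Fn1*, 79.2% of those of *Vcan*, 85.9% of those of *Thbs1* and 62.9% of those of *Cd44*. On day 3 these shares were 28.3% for *Fn1*, 24.8% for *Vcan*, 69.8% for *Thbs1* and 56.7% for *Cd44*. Of the UMIs of all genes, monocyte/macrophage-like cells held 40.8% on day 1 and 45.3% on day 3. *Ly6c2*+ monocyte-like cells held 17.1% and 7.54% of them, and fibroblast/FAP-like cells 26.5% and 28.3%. The *Cd44* shares of both monocyte groups thus lay close to their shares of all UMIs. The main holders of *Fn1* and *Vcan* transcripts on day 3 were fibroblast/FAP-like cells, whose share went from 7.29% to 68.3% for *Fn1* and from 16.3% to 69.1% for *Vcan*. The monocyte groups are given together because the border between them moved with the settings. The monocyte/macrophage-like cells alone held most of the UMIs of 2 members on day 1, *Fn1* with 64.9% and *Thbs1* with 58.3%, and of 0 members on day 3. These counts are descriptions too, without a share of all genes beside them.

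A further 5 members, *Tnc*, *Postn*, *Has1*, *Has2* and *Ptx3*, had over 90% of their UMIs in fibroblast/FAP-like cells on both days. No share of all genes past this limit is given, so the count is a description. The shares were 97.4% on day 1 and 95.5% on day 3 for *Tnc*, and 91.3% and 96.7% for *Postn*. For *Has1*, *Has2* and *Ptx3* they lay between 94.2% and 99.5%. *Tnfaip6* stood between the patterns. Fibroblast/FAP-like cells held 74.0% of its UMIs on day 1 and 94.1% on day 3, and both monocyte groups together held 21.6% and 4.13%. Fibroblast/FAP-like cells had medians of 27890.0 UMIs on day 1 and 26066 on day 3, more than the monocyte/macrophage-like cells, so a share of UMIs is not a share of cells.

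**Figure D1:**
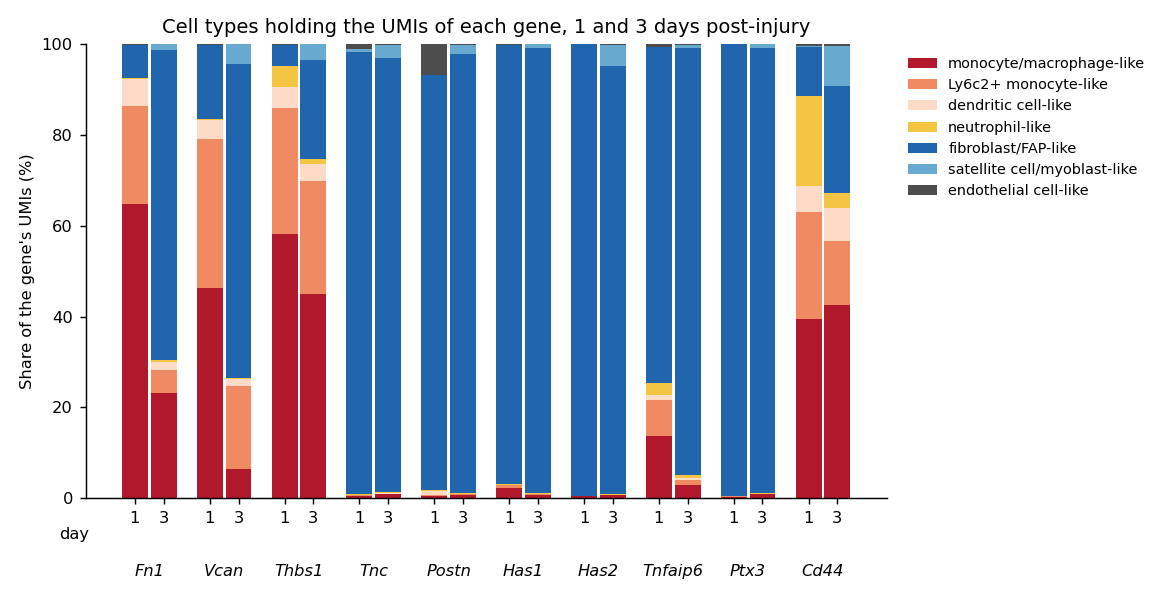
Share of the UMIs of each member, in percent, that each named cell type held on day 1 and on day 3 (stacked bars, 1 library per day). The bars of *Fn1* and *Vcan* change from mostly monocyte groups on day 1 to mostly fibroblast/FAP-like cells on day 3, where those hold 68.3% and 69.1%.

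Over all kept cells, 3 members were lower by 2-fold or more on day 3 and 2 were higher. Among the 14133 genes with at least 50 UMIs, 5.63% were lower and 27.8% were higher by that much. *Thbs1* had 3289 CPM on day 1 and 488 CPM on day 3, 6.74-fold lower. *Fn1* had 1893 and 799 CPM, 2.37-fold lower, and *Cd44* had 810 and 368 CPM, 2.20-fold lower. *Postn* went the other way, with 35.7 and 450 CPM, 12.6-fold higher, as did *Has2*, with 5.13 and 25.7 CPM, 2.32 higher on the log2 scale. The other 5 members differed by less than 2-fold, from 1.02-fold for *Ptx3* to 1.89-fold lower for *Vcan*. Without cells of under 200 genes per 1000 UMIs (cells of few genes per UMI below), *Tnc* and *Ptx3* were higher as well, at 1.36 and 1.57 on the log2 scale. *Has1* was then at 0.80 in place of -0.89. The limit is a ratio, so a cell with many UMIs can fall under it. The study names the same limit in its own filtering of cells. With that filter, the largest fibroblast/FAP-like cluster of day 1 had 200 cells of that day in place of 631. Within fibroblast/FAP-like cells *Ptx3* was at 0.20, and the part of the lost cells was not tested.

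The level over all cells was recalculated with the makeup and the levels of the cell types taken from different days. With the levels of day 1 in each cell type and the makeup of day 3, *Fn1* would have had 1787 CPM, and with the levels of day 3 and the makeup of day 1 it would have had 809 CPM. For *Thbs1* these values were 2846 and 638 CPM, and for *Postn* they were 37.0 and 420 CPM. *Cd44* lay between, with 633 and 473 CPM.

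Monocyte/macrophage-like cells numbered 2323 on day 1 and 2134 on day 3. In them, 6 of the 9 members with at least 50 UMIs were lower by 2-fold or more on day 3 and 2 were higher. Of 11340 genes, 5.71% were lower and 28.2% higher by that much. *Fn1*, which encodes the adhesive glycoprotein fibronectin, had a level of 3009 CPM on day 1 (CI 2989 to 3029) and of 408 CPM on day 3 (CI 401 to 414). *Vcan*, which encodes the hyaluronan-binding proteoglycan versican, went from 432 CPM (CI 424 to 440) to 28.6 CPM (CI 27.0 to 30.4). *Thbs1*, which encodes the matricellular protein thrombospondin 1, went from 4697 CPM (CI 4672 to 4722) to 483 CPM (CI 476 to 490). On the log2 scale the levels fell by 2.88, 3.91 and 3.28. With *Ly6c2*+ monocyte-like cells taken with macrophages, *Vcan* fell by 2.46. *Cd44*, the main hyaluronan receptor, had 786 and 346 CPM and fell by 1.18 on the log2 scale. It missed 2-fold under 3 alternatives. These gave -0.96 with another call of cells, -0.87 without cells of few genes per UMI and -0.92 with another naming of clusters. The lower levels stood in many cells at once. When each cell was thinned to 3000 UMIs, 91.9% of these cells had an *Fn1* UMI on day 1 and 47.6% on day 3, and 58.0% and 6.96% had a *Vcan* UMI.

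*Tnfaip6*, whose product crosslinks hyaluronan by transferring heavy chains to it, was also lower in monocyte/macrophage-like cells, with 41.3 CPM on day 1 and 8.68 CPM on day 3. On day 1, 163 of 2270 thinned cells had a *Tnfaip6* UMI, but they held only 289 such UMIs, so depth limits that share. It cannot tell whether a minority of cells carried the gene. The other 5 members were close to the background of free RNA in monocyte/macrophage-like cells, except for *Has1* on day 1. The profile of barcodes holding 100 UMIs or fewer gave that background, which could make up at most 2.34% of the UMIs of monocyte/macrophage-like cells on day 1 and 1.84% on day 3. *Postn* had 0.379 CPM on day 1 and 8.21 CPM on day 3, and the background could give 159% and 75.8% of these levels. *Ptx3* had 1.14 and 2.96 CPM, for which the background could give 212% and 112%. The summed level of all 8 fibroblast/FAP markers in these cells was 28.0 CPM on day 1 and 109 CPM on day 3, and its part in the higher *Postn* and *Ptx3* was not tested. *Has1* had 4.03 and 0.656 CPM, of which the background could give 36.7% and 140%, and *Tnc* had 0.999 and 1.73 CPM. *Has2* had 2 UMIs on day 1 and 14 on day 3, too few to be counted. The 9 neutrophil markers also moved in these cells, from a sum of 931 CPM on day 1 to 136 CPM on day 3, and none of them was at 0. Their part in the lower members was not tested. Neutrophil-like cells of day 1 had 2209 CPM of *Cd44*, with 19.8% of its UMIs, and 2087 CPM of *Thbs1*, and they held at most 0.396% of the UMIs of *Fn1* and *Vcan* on either day.

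**Figure D2:**
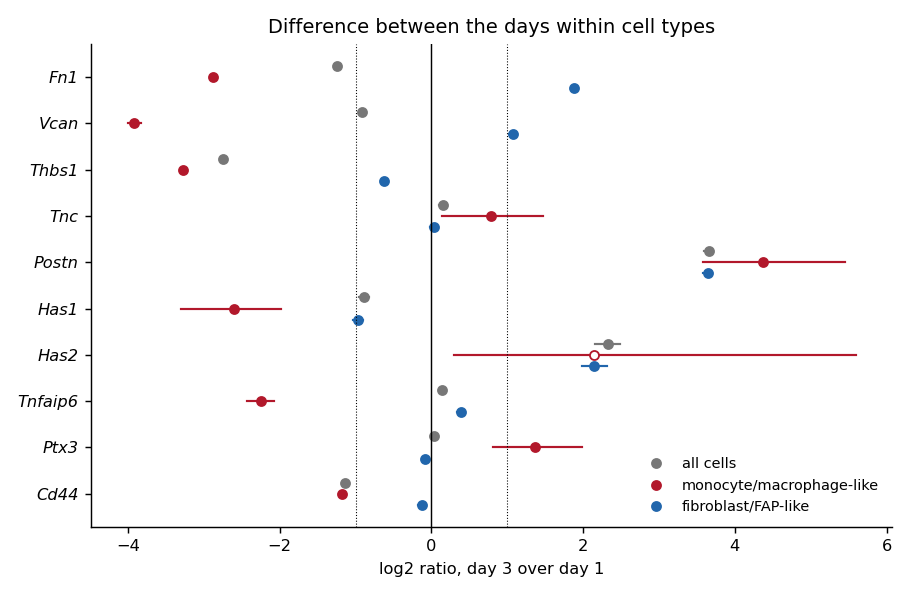
Log2 ratio of day 3 over day 1 for each member in all cells, monocyte/macrophage-like cells and fibroblast/FAP-like cells. Points are ratios of CPM, bars are 95% intervals of counting error, dotted lines mark 2-fold, and the open point (*Has2*) has under 50 UMIs. *Fn1* and *Vcan* lie left of 0 for monocyte/macrophage-like cells (-2.88 and -3.91) and right of 0 for fibroblast/FAP-like cells (1.89 and 1.07).

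Fibroblast/FAP-like cells numbered 643 on day 1 and 816 on day 3, and in them 4 of the 10 members were higher by 2-fold or more on day 3 and 0 were lower. Of 12248 genes, 23.3% were higher and 7.3% lower by that much. *Postn*, which encodes the matricellular protein periostin, had a level of 123 CPM on day 1 (CI 118 to 128) and of 1537 CPM on day 3 (CI 1522 to 1553), 12.5-fold higher. *Fn1* went from 521 CPM (CI 511 to 532) to 1927 CPM (CI 1909 to 1944), 3.70-fold higher. *Has2*, a hyaluronan synthase, went from 19.3 CPM (CI 17.3 to 21.4) to 85.4 CPM (CI 81.8 to 89.2), 4.42-fold higher. *Vcan* went from 234 CPM (CI 227 to 241) to 491 CPM (CI 483 to 500), 2.10-fold higher. Neither *Fn1* nor *Vcan* was carried by a few cells on day 3, when 93.6% of thinned cells had an *Fn1* UMI and 70.8% a *Vcan* UMI, against 45.0% and 47.0% on day 1. *Vcan* was close to the limit of 2-fold, with log2 ratios of 0.96 without cells of few genes per UMI and 0.93 when centred on the median gene. *Postn* was found in 19.3% of thinned cells on day 1 and 88.0% on day 3.

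The direction of *Fn1* and *Vcan* was thus opposite in the main holders of their transcripts. The background of free RNA, which was itself rich in *Fn1* on day 1, could give at most 20.8% of the *Fn1* level of fibroblast/FAP-like cells on day 1 and 2.04% on day 3. The summed level of the 10 monocyte/macrophage markers in fibroblast/FAP-like cells was 364 CPM on day 1 and 1274 CPM on day 3, with none at 0. That of the 5 *Ly6c2*+ monocyte markers was 87.7 and 197 CPM, with none at 0. Their part in the higher *Fn1* and *Vcan* was not tested. On day 3, monocyte/macrophage-like cells had 408 CPM of *Fn1* and 28.6 CPM of *Vcan*, and *Ly6c2*+ monocyte-like cells had 550 and 491 CPM, the latter with an interval that overlaps the *Vcan* level of fibroblast/FAP-like cells.

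The other 6 members differed by less than 2-fold in fibroblast/FAP-like cells. *Has1*, the other hyaluronan synthase measured here, had 279 CPM on day 1 and 143 CPM on day 3, a log2 ratio of -0.97 (CI -1.03 to -0.90), so the interval reaches past 2-fold. *Thbs1* had 578 and 374 CPM, and free RNA could give at most 31.2% of the first value. Its log2 ratio was -0.63, and 0.02 once the highest doublet scores were removed. *Tnc*, which encodes the matricellular protein tenascin C, had 262 and 267 CPM, a log2 ratio of 0.03 (CI -0.02 to 0.08). *Tnfaip6* had 343 and 449 CPM. *Ptx3*, which encodes the soluble pattern receptor pentraxin 3, had 548 and 517 CPM, and *Cd44* had 331 and 304 CPM. The UMIs behind the synthases were 5254 and 3404 for *Has1* and 363 and 2037 for *Has2*.

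The order of the cell types is given for each member by role, starting with the adhesive and matricellular proteins. These orders are descriptions, because the cells were grouped by expression, though not by the members. *Fn1* (ENSMUSG00000026193, chromosome 1, 71585520 to 71653200, minus strand, mm10) was highest in monocyte/macrophage-like cells on day 1, then in *Ly6c2*+ monocyte-like cells with 2387 CPM and dendritic cell-like cells with 1515 CPM, all above the fibroblast/FAP-like cells. In dendritic cell-like cells of day 1, the 10 monocyte/macrophage markers summed to 3385 CPM and the 9 dendritic cell markers to 591 CPM. The part of the former in the *Fn1* level there was not tested. On day 3 fibroblast/FAP-like cells led and *Ly6c2*+ monocyte-like cells came next with 550 CPM. *Thbs1* (ENSMUSG00000040152, chromosome 2, 118111876 to 118127133, plus strand) was highest in *Ly6c2*+ monocyte-like cells on both days, with 5330 and 1609 CPM. Neutrophil-like cells had 2087 CPM of *Thbs1* on day 1, whose interval overlapped that of dendritic cell-like cells with 2061 CPM, and 610 CPM on day 3. *Thbs1* was among the 10 leading genes of 1 of the *Ly6c2*+ monocyte-like clusters, which had 717 cells of day 1. That cluster had 4 of its 5 markers raised, and no name with markers raised against all other clusters. In all *Ly6c2*+ monocyte-like cells these 5 markers summed to 1898.5 CPM on day 1 and 3399 CPM on day 3. The 9 neutrophil markers summed to 3412 and 2054 CPM, and the 10 monocyte/macrophage markers to 2777 and 4696 CPM. The part of these other markers was not tested.

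*Tnc* (ENSMUSG00000028364, chromosome 4, 63959785 to 64047015, minus strand) was highest in fibroblast/FAP-like cells on both days and at most 1.73 CPM in both monocyte groups. Endothelial cell-like cells came second on day 1 with 88.0 CPM. On day 3 satellite cell/myoblast-like cells had 21.0 CPM, which overlapped the 19.6 CPM of endothelial cell-like cells. *Postn* (ENSMUSG00000027750, chromosome 3, 54361109 to 54391037, plus strand) was highest in fibroblast/FAP-like cells on day 3. On day 1 the 92 endothelial cell-like cells had 257 CPM of *Postn*, but only 5 of them had a UMI. Satellite cell/myoblast-like cells of day 3 had 75.2 CPM of *Postn*, with a UMI in 32 of 207 cells. The 8 fibroblast/FAP markers summed to 982 CPM in these cells, against 23097 CPM in fibroblast/FAP-like cells of day 3. Their part in the *Tnc* and *Postn* of satellite cell/myoblast-like cells was not tested.

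The hyaluronan genes followed fibroblast/FAP-like cells except for *Vcan* and *Cd44*. *Vcan* (ENSMUSG00000021614, chromosome 13, 89655312 to 89742509, minus strand) was highest in *Ly6c2*+ monocyte-like cells on day 1, with 731 CPM. On day 3 the fibroblast/FAP-like cells with 491 CPM (CI 483 to 500) and the *Ly6c2*+ monocyte-like cells with 491 CPM (CI 474 to 508) overlapped, while monocyte/macrophage-like cells had 28.6 CPM. The *Ly6c2*+ monocyte-like cells also lay mostly in different clusters on the 2 days, led on day 1 by *Chil3* and *Ifitm6* and on day 3 by *Plac8* and by the interferon-induced *Rsad2*. The part of their neutrophil and monocyte/macrophage markers, given above, in these *Vcan* levels was not tested. *Has1* (ENSMUSG00000003665, chromosome 17, 17843323 to 17855205, minus strand) and *Has2* (ENSMUSG00000022367, chromosome 15, 56665627 to 56694539, minus strand) were highest in fibroblast/FAP-like cells on both days. *Has2* was not detected in *Ly6c2*+ monocyte-like cells on either day, which at a floor of 3 UMIs allows up to 0.247 CPM on day 1 and 0.473 CPM on day 3, and the upper ends of the 95% Poisson intervals were 0.304 and 0.581 CPM. Satellite cell/myoblast-like cells of day 3 had 10.8 CPM of *Has2*, and 62 of those 207 cells had a UMI. The part of their fibroblast/FAP markers, given above, was not tested here either.

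Among the hyaluronan organisers, *Tnfaip6* (ENSMUSG00000053475, chromosome 2, 52038009 to 52056686, plus strand) was highest in fibroblast/FAP-like cells and present elsewhere, with 56.7 CPM in *Ly6c2*+ monocyte-like cells and 45.6 CPM in neutrophil-like cells on day 1. *Ptx3* (ENSMUSG00000027832, chromosome 3, 66219910 to 66225805, plus strand) had at most 2.94 CPM outside fibroblast/FAP-like cells on day 1 among groups of at least 50 cells. *Cd44* (ENSMUSG00000005087, chromosome 2, 102811141 to 102901665, minus strand) had the flattest profile. It was highest in neutrophil-like cells on both days, with 2209 and 1373 CPM, and next in *Ly6c2*+ monocyte-like cells with 1109 and 689 CPM. Fibroblast/FAP-like cells with 304 CPM and satellite cell/myoblast-like cells with 295 CPM overlapped on day 3.

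**Figure D3:**
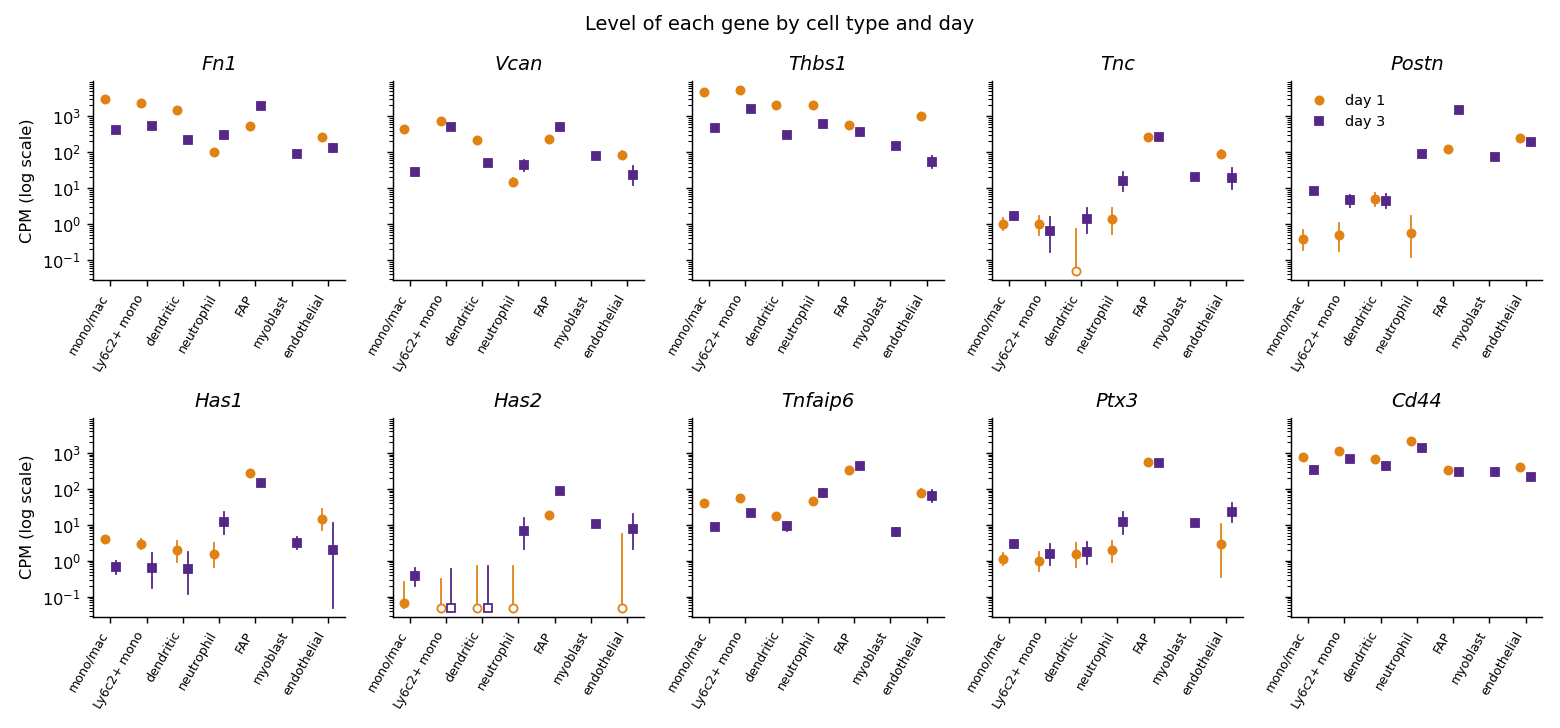
Level of each member in each named cell type on day 1 and day 3, in CPM on a log axis, with 95% intervals of counting error. Levels of 0 are drawn at 0.05 CPM. *Tnc*, *Has1*, *Has2* and *Ptx3* stand apart in fibroblast/FAP-like cells on both days, and *Cd44* lies between 210 and 2209 CPM in all groups.

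Within a day, fibroblast/FAP-like cells were set against monocyte/macrophage-like cells. On day 1, 6 members (*Tnc*, *Postn*, *Has1*, *Has2*, *Tnfaip6* and *Ptx3*) were higher by 2-fold or more in fibroblast/FAP-like cells and 3 (*Fn1*, *Thbs1* and *Cd44*) were lower, where 36.4% of 11397 genes were higher and 16.4% lower. On day 3, 8 were higher, the former 6 with *Fn1* and *Vcan*, and 0 were lower, where 24.9% of 12751 genes were higher and 13.6% lower. *Fn1* was 5.77-fold lower in fibroblast/FAP-like than in monocyte/macrophage-like cells on day 1 and 4.72-fold higher on day 3. *Vcan* was 1.85-fold lower on day 1, and on the log2 scale it lay between -1.02 and -1.20 under 6 alternatives and at -0.24 with another call of cells. On day 3 *Vcan* was 17.2-fold higher, a log2 ratio of 4.10, which was 2.38 with *Ly6c2*+ monocyte-like cells taken with macrophages. *Thbs1* was 8.13-fold lower on day 1 and 1.29-fold lower on day 3, so the 2 cell types came close on day 3. These groups were told apart by expression, so the ratios are descriptions.

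Fibroblast/FAP-like cells were not uniform. With the libraries clustered separately, day 1 gave 1 cluster of 643 cells with fibroblast/FAP markers and day 3 gave 3 clusters. The first, of 397 cells, was led by *Tnc*, *Col8a1* and *Aspn* and carried *Acta2*, a gene of contractile cells, at 308 CPM. The second, of 210 cells, was led by *Clec3b* and *Pi16*, known from fibroblasts around vessels and fascia. The third, of 251 cells, was led by *Fabp4* and *Fmod* and stayed without a name, because another marker list led it. *Col1a1* was found in 88.0% of its cells, against 100% in the first and the second, and the mural marker *Rgs5* had 65.1 CPM. Whether the third cluster holds other cell types was not tested. *Tnc* had 419 CPM in the first, 44.0 CPM in the second and 112 CPM in the third, against 264 CPM on day 1. *Tnc* led the first cluster, so its level there is no finding.

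The hyaluronan organisers were highest in the *Clec3b* and *Pi16* cells. *Tnfaip6* had 931 CPM there, against 352 CPM in the *Tnc*-led and 290 CPM in the *Fabp4*-led cells, and *Ptx3* had 942, 447 and 335 CPM. *Has1* followed with 270, 132 and 70.8 CPM, so its level in the *Clec3b* and *Pi16* cells lay close to the 279 CPM of day 1. *Fn1* had 3147, 1747 and 1377 CPM, each above the 518 CPM of day 1. *Postn* had 1380, 1868 and 927 CPM, each above the 131 CPM of day 1. The higher *Fn1* and *Postn* were thus found in all 3 clusters of day 3, the unnamed cluster among them.

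**Figure D4:**
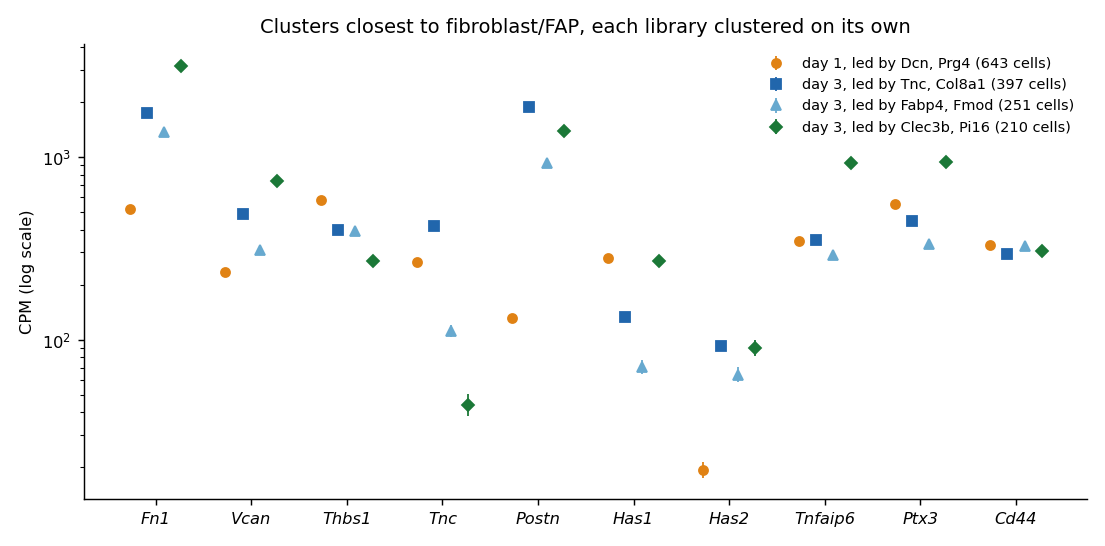
Level of each member, in CPM on a log axis with 95% intervals of counting error, in the clusters with fibroblast/FAP markers after separate clustering of the libraries. *Tnfaip6* runs from 290 to 931 CPM over the clusters of day 3, and *Fn1* and *Postn* of day 3 lie above day 1 in all 3.

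The spread of the transcripts over fibroblast/FAP-like cells was read in thinned cells. In cells thinned to 3000 UMIs, the 10% of cells with the most *Postn* UMIs held 78.2% of them on day 1 and 31.4% on day 3. For *Fn1* these shares were 53.4% and 28.9%, and for *Tnc* they were 67.5% and 59.0%. Such a share falls as the number of UMIs rises, and the thinned cells held 271 UMIs of *Postn* on day 1 and 3833 on day 3, 958 and 5150 of *Fn1*, and 507 and 575 of *Tnc*.

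Pairs of members met in the same thinned fibroblast/FAP-like cell about as often as the product of their shares for most pairs, and a weak departure in sparse counts is no finding. The lowest ratio among pairs in which both genes were in over 100 cells was that of *Fn1* and *Tnc* on day 1, with 48 cells holding both where the product of the shares gives 82.8, a ratio of 0.58. On day 3 the ratio was 1.02, when nearly every cell had *Fn1*. *Has1* and *Tnfaip6* met 1.24 times as often as the product on day 1, in 133 cells, and 1.30 times on day 3, in 170 cells. *Tnfaip6* and *Ptx3* met 1.26 times as often on day 1 and 1.14 times on day 3. These pairs were named after their values were seen.

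The other genes of the pathway were read from 7 lists of 75 genes in all. In fibroblast/FAP-like cells, 8 of 17 measured genes for other provisional-matrix and matricellular proteins were higher by 2-fold or more on day 3 and 3 were lower. Of all genes, 23.3% were higher and 7.3% lower. The median log2 ratio of the list was 0.95 where all genes had 0.30. *Fbn2*, a fibrillin, had 0.797 and 24.1 CPM, and *Ccn5* had 32.5 and 205 CPM. *Thbs4*, a thrombospondin, had 897 and 246 CPM, and *Ccn2*, a matricellular protein induced by TGF-beta, had 526 and 251 CPM. The lower genes of this list were *Thbs4*, *Ccn2* and *Vtn*.

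The genes of hyaluronan metabolism are read against the 23.3% of all genes that were higher and the 7.3% that were lower in fibroblast/FAP-like cells. Of 7 measured genes of hyaluronan synthesis, 0 were higher by 2-fold and 1 was lower, close to these shares. The lower gene was *Uap1*, which makes the activated N-acetylglucosamine, with 427 and 169 CPM. The median log2 ratio was -0.22. Of 7 genes of hyaluronan breakdown, 5 were higher and 0 lower, with a median of 1.29. *Cemip*, which starts the breakdown of hyaluronan outside the cell, had 0.106 and 2.14 CPM, from 2 and 51 UMIs. Of 5 other hyaluronan-binding genes, 3 were higher and 0 lower, with a median of 1.36. *Hmmr*, which is best known as a gene of dividing cells, had 0.319 and 52.5 CPM, and *Stab1*, a scavenger receptor, had 15.6 and 48.7 CPM beside the macrophage markers given above.

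Receptors and proteases were mixed, read against the same shares of all genes. In fibroblast/FAP-like cells, 6 of 12 receptors for fibronectin, tenascin, periostin and thrombospondin were higher and 1 was lower, with a median of 0.98. *Itga4* had 2.39 and 9.23 CPM, *Itgb8* had 0.744 and 3.27 CPM, and *Sdc4*, the syndecan that binds fibronectin, had 480 and 175 CPM. Of 5 versican-cleaving ADAMTS proteases, 1 was higher, *Adamts4*, with 12.6 and 58.5 CPM, and 0 were lower, with a median of 0.21. Other hyalectans and link proteins, 7 genes, had none with 50 UMIs.

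In monocyte/macrophage-like cells the same lists gave other counts. They are read against the 28.2% of all genes that were higher and the 5.71% that were lower there. Of 11 provisional-matrix genes, 4 were higher and 5 lower, with a median of 0.72 where all genes had 0.46. *Ccn1* had 5.03 and 1.34 CPM, *Thbs4* had 4.58 and 1.73 CPM, *Fbn1* had 0.620 and 4.56 CPM, and *Ccn5* had 0.241 and 1.13 CPM. These levels lie in the range of the members close to free RNA in these cells, whose fibroblast/FAP markers are given above, and the part of free RNA in these 4 genes was not tested. Genes of breakdown were 3 higher and 0 lower of 7, with a median of 0.91, and *Hexa* among them had 258 and 705 CPM. Of 5 hyaluronan-binding genes, 3 were higher and 1 lower, with a median of 1.23. *Stab1* had 200 and 493 CPM, *Ambp* had 3.69 and 1.39 CPM, and *Hmmr* was not detected on day 1 and had 31.4 CPM on day 3, at least 304-fold higher against a floor of 3 UMIs in the group. Hyaluronan synthesis had 0 higher and 0 lower of 7, with a median of 0.31. Receptors were 5 higher and 2 lower of 12, with a median of 0.78. *Itgb3* had 0.172 and 1.47 CPM, *Itga9* had 4.38 and 19.1 CPM, *Sdc4* had 640 and 134 CPM, and *Sdc1* had 22.3 and 10.9 CPM. *Sdc4* was thus lower in both cell types. Of 2 ADAMTS proteases 1 was lower, *Adamts4*, with 1.48 and 0.393 CPM, and 0 were higher, with a median of -1.03.

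Finally, the 3 genes most like each member were found by the Pearson correlation of log2(CPM + 10) over 13 groups, a cell type on a day with at least 50 cells, among 10388 genes. The groups of a day share a library, so the values are a description. *Fn1* was nearest to *Adam9* (0.95), *Ecm1* (0.90) and *Hif1a* (0.88), and *Vcan* was close to *2610002M06Rik* (0.85) and *Gorab* (0.84). *Thbs1* was nearest to *Dhrs11*, *Saa3* and *F10* (0.94, 0.94 and 0.93), and *Cd44* to *Mcemp1* (0.98), *Zswim4* (0.97) and *Arg2* (0.97). The members of fibroblast/FAP-like cells had closer neighbours, since 1 cell type set most of the pattern. *Tnc* was nearest to *Medag*, *Hdgfl3* and *Angptl4*, and *Postn* to *Ephx1*, *Trim2* and *Fkbp9*. *Has1* was nearest to *Tnxb*, *Abi3bp* and *Fgf2*, and *Has2* to *Srpx2*, *Fndc1* and *Cthrc1*. *Ptx3* was nearest to *Prelp*, *Entpd2* and *Sema3c*, and all these values lay between 0.98 and 1.00. *Tnfaip6* was nearest to *Hic1* (0.90), *Sar1a* (0.90) and *Ccl19* (0.89). No gene was among the nearest 3 of 2 members. The synthases *Has1* and *Has2* thus shared none of these neighbours, while their correlation with each other was 0.79.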

How the data were processed

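Libraries were made with 10x Genomics 3′ kits. The tables the authors deposited hold raw counts of UMIs for every listed barcode, neither normalized nor reduced to cells. The submitters' processing notes name Cell Ranger 5.0.0 and mm10. Gene positions are from GENCODE vM21 and promoters from RefSeq, both on the same build. Of the samples of the study, both libraries of injured quadriceps were used, and none had a replicate.

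The barcodes richest in UMIs were taken as cells, 7367 on day 1 and 6640 on day 3, as many as the study states. Those with under 200 genes, under 1000 UMIs or over 7.5% mitochondrial UMIs were left out. Scrublet at its own threshold marked 2 cells of day 1 and 0 of day 3, too few to have worked, so doublets were kept. Counts were normalized with SCTransform (Seurat 5.3.0, sctransform 0.4.2, R 4.3.3) with 3000 variable features and clustered on 10 principal components at a resolution of 0.8. Neither members nor naming markers were among the variable features. A cluster was named after its highest-scoring marker list if at least 3 markers were raised by 2-fold against clusters led by another list. That reference was chosen after cluster names, but no value of a member, had been seen, since comparing an abundant cell type with itself left clusters without a name.

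CPM of summed UMIs have exact Poisson intervals and shares have Clopper-Pearson intervals. For log2 ratios, 0.5 was added to each count and the interval is exact binomial. A gene was counted in a comparison with at least 50 UMIs over both sides, and called at 2-fold. Shares of cells are from cells thinned to 3000 UMIs, with shallower cells left out. Barcodes of 100 UMIs or fewer gave the profile of free RNA, and its upper limit in a group from the marker list of another cell type that allowed the least. All 10 members are named, with up to 2 genes at each end of a pathway list past 2-fold, and the 3 genes most like each member, except 2 genes that are not reported here. *Vtn* was named after its value was seen. The members and the lists were chosen with earlier results of these data known. Poisson counts for day 3 over day 1 in fibroblast/FAP-like cells were simulated from a shared profile, with 200 of 12248 genes changed. The interval lay on the correct side of 0 for 99.5% of those changed, and 95.6% of all intervals held the true ratio. The simulated counts had the counting error that the intervals assume and no variation between cells, mice or libraries. They therefore check the calculation alone. Python 3.11.15 with numpy 2.4.6, scipy 1.17.1, pandas 2.3.3, scanpy 1.11.5 and matplotlib 3.10.9 was used for the rest. Alternatives to the call and filters of cells, doublets, clustering, naming, summary, free RNA, depth and scaling were run, 1 at a time.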

Additional observations from a re-analysis of the deposited data

Results flagged for a closer look

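*Fn1* and *Vcan* moved in opposite directions in different cell types between the days, and the difference between cell types was not tested, since each day had 1 library. The log2 ratio of *Fn1*, day 3 over day 1, was 1.89 in fibroblast/FAP-like cells and 1.53 in neutrophil-like cells. It was -2.88 in monocyte/macrophage-like, -2.12 in *Ly6c2*+ monocyte-like, -2.77 in dendritic cell-like and -1.0003 in endothelial cell-like cells. The log2 ratio of *Vcan* was 1.07 in fibroblast/FAP-like and 1.57 in neutrophil-like cells, the latter from 78 UMIs on day 1 and 34 on day 3. It was -3.91 in monocyte/macrophage-like, -2.10 in dendritic cell-like and -1.81 in endothelial cell-like cells, and -0.57 in *Ly6c2*+ monocyte-like cells. In endothelial cell-like cells of day 1, free RNA could give 95.5% of the *Fn1* and 42.4% of the *Vcan* level. Their 8 endothelial markers summed to 3051 CPM on day 1 and 1485 CPM on day 3, the 9 neutrophil markers to 3258 and 118 CPM, the 6 erythroid markers to 2430 and 5.89 CPM, and the 8 T/NK cell markers to 95.4 and 1391 CPM. In dendritic cell-like cells, the 9 dendritic cell markers summed to 591 CPM on day 1 and 424 CPM on day 3. The 10 monocyte/macrophage markers summed to 3385 and 4710 CPM there, and the neutrophil markers to 1516 and 157 CPM. In neutrophil-like cells, the summed level of the 10 monocyte/macrophage markers was 310 CPM on day 1 and 3319 CPM on day 3, and that of the 8 fibroblast/FAP markers was 25.0 and 1596 CPM, and the part of these other markers in the ratios was not tested.

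Cells over the mitochondrial limit, which no comparison used, also held the members. Summed over the 10 members, they had 6448 CPM on day 1, in 292 cells with at least 1000 UMIs, and 2381 CPM on day 3, in 2013 cells. The kept cells had 6829 and 2737 CPM.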

How the results depend on the processing

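Over 15 alternatives, 631 recomputed values stayed on their side of 2-fold or, for counts, within 1.5 times, 32 moved and 3 reversed. Over all cells, 4 members in place of 2 were higher once cells with few genes for their UMIs were left out, and 5 in place of 3 were lower with ratios centred on the median gene, whose log2 ratio was 0.36. In monocyte/macrophage-like cells, 1 in place of 2 was higher once the highest doublet scores were removed. In fibroblast/FAP-like cells, 1 in place of 0 was lower (*Has1*) with centred ratios, and 1 with each cell named by its own score. The number of members with most of their UMIs in monocyte/macrophage-like cells on day 1 was 2 in the report. It was 0 with another call of cells and without cells of few genes per UMI. The number was also 0 with each library clustered on its own, with each cell named by its own score and with markers raised against all other clusters. It was 4 at a resolution of 0.4 and with *Ly6c2*+ monocyte-like cells included, which also gave 2 in place of 0 on day 3. The reversals were of *Has1* and *Ptx3*, both low in monocyte/macrophage-like cells. The log2 ratio of *Has1* was 0.16 with markers raised against all other clusters. That of *Ptx3* was -0.061 without cells of few genes per UMI and -0.40 with free RNA subtracted. Apart from the construction of the alternatives, the cause was not tested. Subtraction of free RNA could not be done for all cells together. The alternatives on the reference for raised markers, on *Ly6c2*+ monocyte-like cells and on the main fibroblast/FAP-like clusters were chosen after seeing the data. No paired analysis was possible because each day had 1 library of other mice. Intervals cover counting error, and depth limits members with few UMIs, such as *Has2* outside fibroblast/FAP-like cells.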
